A study of Mus musculus with 12 samples.

Results

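Antibody heavy and kappa light chains are built from variable segments, and 135 such segments were described here across 12 RNA-seq libraries of mouse aorta. They were selected on their measured level: a symbol beginning with Ighv (heavy chain) or Igkv (kappa chain) and a summed estimated count of at least 30 over the 12 libraries. Of 22013 entries in the deposited table, 213 matched by symbol, and the minimum left 59 of 113 heavy and 76 of 100 kappa entries. The other 78 fell under the minimum, and 30 of these had no count in any library. Just inside the minimum were Igkv4-58 with 31.9 counts and Igkv4-63 with 32.3, and just outside were Igkv5-45 with 29.9 and Igkv8-34 with 29.0. Because counts were summed over all groups, a segment could pass through 1 group alone, so the number of members high in a group is a description of the choice as well as of the group.

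All mice carried an angiotensin II infusion, which raises blood pressure, and cells of the aorta labelled as endothelial were sequenced. Wild-type mice and mice with a global knockout of Glra2, the gene of the glycine receptor alpha 2 subunit, received intraperitoneal saline or glycine. There were thus 4 groups of 3 libraries: wild-type saline 1 to 3, wild-type glycine 4 to 6, knockout saline 1 to 3 and knockout glycine 4 to 6. The glycine label was 800 mg/kg per day except for knockout glycine 5, labelled 80. The labels give no age, sex or strain and do not say whether replicate libraries were made from different mice, so p-values measure only the spread between these libraries, which may be technical.

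Library totals were 14.5 to 24.3 M estimated counts. Glra2 itself had 0 counts in all 12 libraries, below the 0.118 to 0.279 CPM (counts per 1000000) that 3 counts would give, so it could not check the genotype labels. Summed CPM of 10 endothelial markers was 236 to 801 per library, below the fibroblast and macrophage sums given with the segment levels, and the endothelial markers Pecam1 and Cdh5 were counted in every library. The libraries therefore held transcripts of several cell types, and in such bulk RNA fewer cells of a type and less RNA per cell cannot be told apart. Mitochondrial transcripts took 26.9% to 64.7% of the counts, so CPM was taken over the library total scaled by edgeR's TMM factor (0.64 to 1.23).

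In each developing B cell, V(D)J recombination joins 1 variable segment to a joining segment at the heavy chain locus and likewise at a light chain locus, and the descendants of that cell keep the choice. Segments are grouped into families by sequence likeness. Plasma cells, the secreting stage, hold far more immunoglobulin RNA than resting B cells, so shares of segment counts weight cells by their RNA. A bulk library therefore gives how transcript counts divide over segments, and gives neither numbers of clones nor which heavy chain was paired with which light chain.

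Summed over the heavy segments, the level was lowest in wild-type saline and highest in knockout glycine. Their summed CPM was 7.31, 12.2 and 7.51 in wild-type saline 1, 2 and 3, 39.2, 42.5 and 29.8 in wild-type glycine 4, 5 and 6, 36.9, 55.7 and 49.1 in knockout saline 1, 2 and 3, and 129, 141 and 139 in knockout glycine 4, 5 and 6. Every wild-type saline library was below all others and every knockout glycine library above all others, while wild-type glycine and knockout saline overlapped. As ratios of group means, wild-type glycine was 4.12 times wild-type saline, knockout saline 5.24 times wild-type saline, knockout glycine 2.89 times knockout saline and 3.67 times wild-type glycine. These sums are over chosen members and carry no test.

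The kappa segments kept the same order of groups, with smaller ratios. Their summed CPM was 45.0, 57.4 and 56.3 in saline-treated wild type, 168, 190 and 89.4 in glycine-treated wild type, 137, 200 and 182 in saline-treated knockout and 332, 390 and 431 in glycine-treated knockout, by library number. Again no wild-type saline or knockout glycine library overlapped another group. The ratios of means were 2.82 for glycine against saline in wild type and 2.22 in the knockout, and 3.27 for knockout against wild type under saline and 2.57 under glycine. On the unscaled library total the ratio for glycine in wild type was 5.85 for heavy and 3.89 for kappa segments.

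Other features of the libraries moved with the groups. Mitochondrial transcripts took 50% to 64.7% of counts in saline-treated wild type, which had the lowest segment level, 30.6% to 38.5% in glycine-treated wild type, 34.4% to 50.4% in saline-treated knockout and 26.9% to 36.2% in glycine-treated knockout, which had the highest. The 8 macrophage markers summed to 3756 to 5793, 8553 to 9086, 14627 to 19491 and 8953 to 10287 CPM in the same order of groups. Of these 8, 6 were called higher with glycine in wild type and 8 higher in the knockout under saline, while 1 was called lower with glycine in the knockout and 0 either way between genotypes under glycine. The 8 fibroblast markers summed to 16295 to 22457, 17637 to 19169, 6462 to 8301 and 9972 to 12372 CPM, and all 8 were called lower in the knockout under saline and 3 under glycine. With glycine 1 of them was called lower in wild type and 3 higher in the knockout. The 10 endothelial markers were highest in saline-treated wild type, at 531 to 801 CPM against 236 to 436 in the other libraries. The part of the mitochondrial share and of these cell types in the segment levels was not tested.

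**Figure D1:**
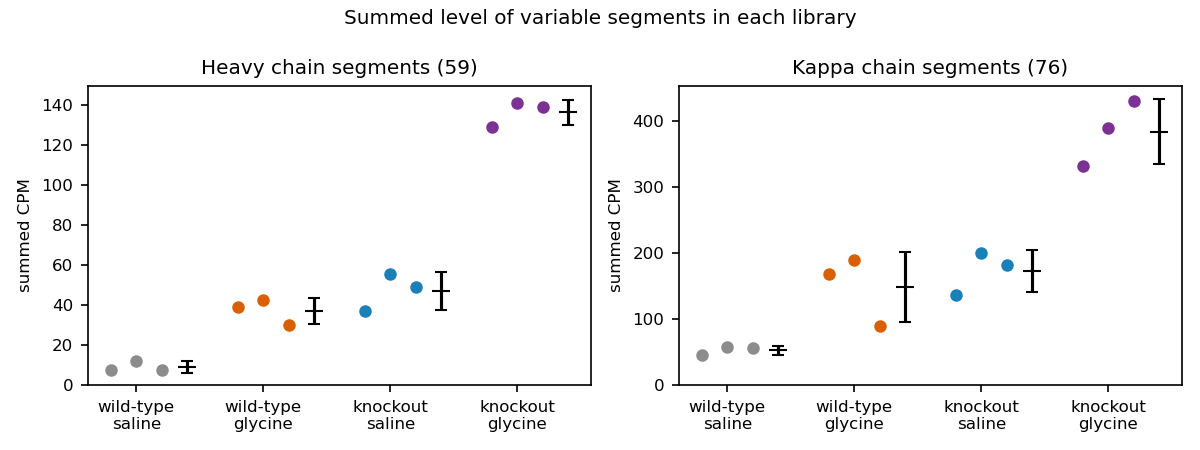
Summed CPM of the 59 heavy (left) and 76 kappa (right) variable segments in each library, 3 dots per group, with the group mean and SD as a bar beside them. Wild-type saline sat lowest and knockout glycine highest in both loci, at 129 to 141 CPM for heavy and 332 to 431 CPM for kappa segments.

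The balance of the 2 chains differed between groups. Counts of kappa per count of heavy segments were 6.15, 4.70 and 7.49 in saline-treated wild type, 4.30, 4.47 and 3.0 in glycine-treated wild type, 3.71, 3.59 and 3.70 in saline-treated knockout and 2.57, 2.76 and 3.10 in glycine-treated knockout. All wild-type saline libraries thus lay above all others. The kappa segments followed the kappa constant region, Igkc, closely, at 0.42 to 0.50 counts per Igkc count in every library. Heavy segments did not keep such a ratio to the heavy constant regions: it was 0.04 to 0.05 in saline-treated wild type, 0.08 to 0.09 in glycine-treated wild type, 0.07 to 0.09 in saline-treated knockout and 0.12 to 0.13 in glycine-treated knockout, in counts that were not corrected for length.

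The constant regions, which set the antibody class, were read beside the segments. Igha, the IgA heavy chain, averaged 0.239 ± 0.206 CPM in saline-treated wild type, 70.6 ± 15.4 in glycine-treated wild type, 66.3 ± 9.74 in saline-treated knockout and 216 ± 21.0 in glycine-treated knockout (mean ± SD, n = 3 each), and Ighm, the IgM heavy chain, 184 ± 32.2, 333 ± 65.8, 410 ± 24.6 and 512 ± 25.3. Jchain, which joins IgM and IgA into polymers and marks antibody-secreting cells, averaged 13.0 ± 3.73, 62.0 ± 27.7, 89.5 ± 21.0 and 183 ± 10.9 CPM in the same order. Of the IgG heavy chains, Ighg2b averaged 1.03 ± 1.31, 6.01 ± 4.06, 8.59 ± 4.36 and 152 ± 12.9 CPM. Ighg2c averaged 2.8 ± 1.78, 5.14 ± 3.04, 38.1 ± 9.98 and 144 ± 14 CPM. Ighd, the IgD heavy chain, averaged 20 ± 2.83, 33.6 ± 19.7, 20.1 ± 11.7 and 37 ± 17.7 CPM, with overlap between groups. Of the 3 lambda light chain segments tested, Iglv1 was called higher with glycine in wild type (2.17 ± 0.49 on the log2 scale, edgeR adjusted p = 0.0420) and Iglv2 in the knockout under saline (1.88 ± 0.58, adjusted p = 0.0496).

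Marker genes of lymphocytes were summed in the same libraries. Summed over 17 B cell genes, CPM was 293 to 360 in saline-treated wild type, 267 to 435 in glycine-treated wild type, 305 to 390 in saline-treated knockout and 542 to 617 in glycine-treated knockout, so the first 3 groups overlapped. Of 16 B cell genes tested, 0, 1, 1 and 1 were called higher for glycine in wild type, glycine in the knockout, and knockout against wild type under saline and under glycine. They were the B cell surface receptor Cd72 in the second and the last, and the scaffold Bank1 under saline. Cd72 alone gave 295, 349 and 343 CPM in knockout glycine and 88.5 to 190 CPM in the other libraries. The higher B cell sum of knockout glycine thus rested largely on this gene. Ebf1, a B lineage factor also present in fat and stroma, was lower in the knockout under saline. The 13 plasma cell genes summed to 405 to 439, 448 to 598, 440 to 525 and 535 to 633 CPM, with Jchain the only one called in any pairwise comparison. Jchain alone gave 175, 195 and 178 CPM of the knockout glycine sums and 8.69 to 107 CPM in the other libraries. The 11 T cell genes summed to 23.7 to 58.0, 43.3 to 86.2, 36.3 to 61.7 and 228 to 267 CPM, and 4 of them (Trac, Trbc1, Trbc2 and Lck) were called higher with glycine in the knockout. Rag1, part of the recombinase, was at 0 in 8 of the 9 other libraries and at 11.5, 11.4 and 2.43 CPM in knockout glycine. The part of these cell markers in the segment results was not tested.

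Diversity was described in 3 ways: the segments with a count, the number expected when every library is reduced to the same number of counts, and the inverse Simpson number, which is the number of equally used segments that would give the same concentration. For heavy segments the inverse Simpson number was 12, 15.6 and 11.1 in saline-treated wild type, 3.24, 10.3 and 3.87 in glycine-treated wild type, 14.6, 11.8 and 16.0 in saline-treated knockout and 24, 19.8 and 19.2 in glycine-treated knockout. Wild-type glycine was therefore the most concentrated group and knockout glycine the most even, and neither overlapped its saline counterpart. Wild-type glycine 5 lay apart from the other two of its group, whose mean without it was 3.56 in place of 5.81. Other heavy measures did overlap between saline and glycine in wild type: the effective number (exponential of Shannon entropy) was 13.2 to 19.9 and 7.04 to 20.4, and the 5 leading segments took 48.7% to 56.8% and 49.1% to 76.3%. Heavy segments with a count numbered 17 to 27 per library with saline and 27 to 44 with glycine in wild type, and 32 to 50 and 53 to 56 in the knockout. At a common 115 heavy counts, 16.9 to 26.6, 18.0 to 29.5, 25.6 to 33.4 and 31.5 to 36.8 segments were expected in wild-type saline, wild-type glycine, knockout saline and knockout glycine.

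Kappa diversity gave another order. The inverse Simpson number was 30.2, 31.4 and 10.9 in saline-treated wild type, 12.4, 14.4 and 10.7 in glycine-treated wild type, 11.6, 15.2 and 10.8 in saline-treated knockout and 35.0, 35.3 and 25.5 in glycine-treated knockout. Wild-type saline 3 stood with the concentrated groups, and Igkv8-19 took 20.1% of its kappa counts. Igkv8-19 had 184 counts there and 4 to 38 in each of the other 11 libraries. At a common 619 counts, knockout glycine gave 62.2 to 63.7 kappa segments and the other 9 libraries 44.1 to 56.0.

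**Figure D2:**
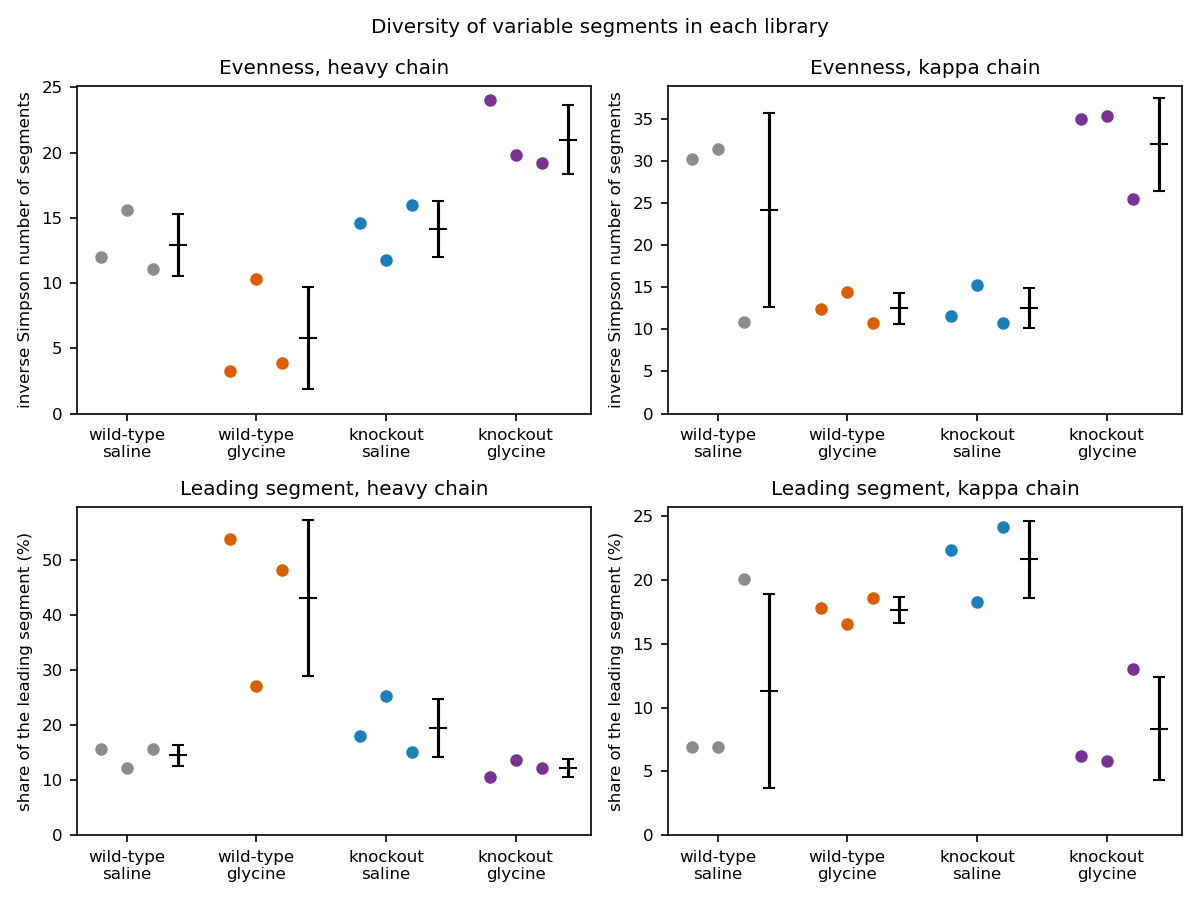
Inverse Simpson number (top) and percentage of counts taken by the leading segment (bottom) for heavy (left) and kappa (right) chains, 1 dot per library with the group mean and SD beside. Heavy chains were most concentrated in wild-type glycine, with leading shares of 53.8%, 27.0% and 48.2%, and most even in knockout glycine, at 10.5% to 13.7%.

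Wild-type saline had no common heavy leader. Ighv1-9 led its library 1 with 18 counts, Ighv5-4 its library 2 with 16 and Ighv5-17 its library 3 with 19, shares of 15.6%, 12.2% and 15.6%. At this depth the exact binomial interval of the first share ran from 9.55% to 23.6%, so the order of segments within wild-type saline was not resolved.

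One heavy segment led the libraries of 3 groups. Ighv4-1, the one member here of the family Ighv4, had 0, 2 and 11 counts in saline-treated wild type, 311, 235 and 272 in glycine-treated wild type, 96, 264 and 187 in saline-treated knockout and 293, 422 and 321 in glycine-treated knockout. It was the leading heavy segment in all 9 libraries outside wild-type saline, with 53.8% (95% exact binomial interval 49.6 to 57.9), 27.0% and 48.2% of heavy counts in wild-type glycine, 17.9%, 25.3% and 15.0% in knockout saline and 10.5%, 13.7% and 12.2% in knockout glycine. Such intervals cover counting error only. Its share was lower in knockout than in wild-type glycine while its CPM overlapped in both, at 15.6 ± 4.93 and 16.6 ± 2.95 (mean ± SD, n = 3).

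Ighv4-1 was called higher with glycine in wild type, by 5.69 ± 0.75 on the log2 scale (SE; edgeR adjusted p = 0.00342), and higher in the knockout under saline, by 4.94 ± 0.74 (adjusted p = 4.39e-04), with all 3 libraries above all 3 in both. These comparisons share the wild-type saline libraries. Both calls held when each of the 6 libraries compared was left out in turn. In the knockout glycine added 0.83 ± 0.57, which was not called (adjusted p = 0.701). The difference between the glycine effects was −4.85 ± 0.92 (interaction, adjusted p = 0.0199). Without knockout glycine 4, 5 or 6 that adjusted p became 0.0624, 0.0549 or 0.0678, and without knockout saline 2 it became 0.0594. Igha had the same form of interaction, −6.62 ± 0.44 (adjusted p = 4.04e-06).

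The reference sequence of Ighv4-1 is shown because a distinct sequence bears on whether its reads can be assigned, with capitals marking bases that differ from its closest relative in the table, Ighv11-1. Over the last 250 bases of the GENCODE vM21 transcript (GRCm38, chromosome 12, minus strand, 5′ to 3′, exonic), 59 edits separate the pair, of which 53 fall on a base shown here and 6 are bases that Ighv4-1 lacks. All counts of Ighv4-1 were whole numbers as deposited.
Ighv4-1: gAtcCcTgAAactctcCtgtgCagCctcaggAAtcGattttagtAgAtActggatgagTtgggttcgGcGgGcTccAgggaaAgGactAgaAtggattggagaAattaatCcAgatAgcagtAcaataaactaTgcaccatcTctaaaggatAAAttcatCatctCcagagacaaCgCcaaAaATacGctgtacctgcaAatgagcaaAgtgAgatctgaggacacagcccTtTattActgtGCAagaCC

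Glycine against saline in wild type was also called for a pair of kappa segments. Of the 135 members, 117 passed the filter on low counts and 18 were not tested. Higher calls were made for 3 members, against 0.991% of the 13928 genes tested, and lower calls for 0, against 0.395%. At an unadjusted p under 0.05 there were 24 members, against 12% of all genes. DESeq2 called 11 higher, against 2.62% of the genes to which it gave an adjusted p, and 0 lower, against 1.26%.

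Igkv19-93 had 17, 28 and 2 counts in wild-type saline and 305, 340 and 248 in wild-type glycine. It rose by 3.76 ± 0.76 on the log2 scale (edgeR adjusted p = 0.0236), with no overlap between groups. The call was lost without wild-type saline 1 (adjusted p = 0.087), wild-type glycine 5 (0.0601) or wild-type glycine 6 (0.0537). Igkv8-30 had 26.3, 33.1 and 9 counts in saline and 442, 345 and 316 in glycine and rose by 3.61 ± 0.82 (adjusted p = 0.0451). Its call was lost without 5 of the 6 libraries, all but wild-type saline 2, with adjusted p up to 0.149 without wild-type saline 3. When the model held only these 2 groups, none of the 3 segments passed the threshold.

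Glycine against saline in the knockout was called higher for 5 members, against 0.926% of all genes, and lower for 0, against 0.201%. The unadjusted count was 48, against 11.1% of all genes, and DESeq2 called 22 higher, against 2.5%, and 2 lower, against 1.14%. Igkv19-93 was called here too, with 4, 18 and 8 counts in knockout saline and 251, 368 and 254 in knockout glycine, a rise of 4.74 ± 0.80 on the log2 scale (edgeR adjusted p = 0.00906). Its call was lost without knockout saline 3 (0.0591). Glycine thus came with more Igkv19-93 in both genotypes, and its interaction of 0.98 ± 1.0 did not pass the test (adjusted p = 0.782).

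The other 4 segments called in that comparison had few counts outside knockout glycine. Ighv9-3 had 8, 6 and 9 counts in knockout saline and 204, 268 and 254 in knockout glycine, a rise of 4.83 ± 0.85 (edgeR adjusted p = 0.0114). Ighv7-3 had 0 counts in all knockout saline libraries and 161, 167 and 184 in knockout glycine, at least 161-fold higher when 3 counts over the group stand for 0 (adjusted p = 0.0401). It had 3 counts in 1 wild-type saline library and 7 in 1 wild-type glycine library.

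Kappa segments in the same set were Igkv12-41 and Igkv1-117. Igkv12-41 had 2.15, 1.12 and 0 counts in knockout saline and 181, 244 and 183 in knockout glycine, a rise of 7.25 ± 1.45 (edgeR adjusted p = 0.0249). Igkv1-117 had 0, 13.8 and 9.6 counts against 237, 303 and 206, a rise of 4.92 ± 1.03 (adjusted p = 0.0313). In none of the 4 did the groups overlap. Even so, the adjusted p of Ighv7-3 and Igkv12-41 rose above 0.05 whichever of the 6 libraries was left out, up to 0.156 without knockout glycine 6 and 0.125 without knockout saline 2. That of Igkv1-117 did so without every library but knockout saline 1, up to 0.144 without knockout glycine 5, and that of Ighv9-3 without knockout saline 2 or 3 or knockout glycine 5 or 6, up to 0.0828.

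Ighv7-3 is shown beside its closest relative in the table, Ighv7-2, because 93.2% of its last 250 bases match. Of the 17 edits between them, capitals mark the 15 that fall on a base shown, and 2 are bases that Ighv7-3 lacks. The source is as above (chromosome 12, minus strand). All its counts were whole as deposited, and Ighv7-2 had 0 counts in every library.
Ighv7-3: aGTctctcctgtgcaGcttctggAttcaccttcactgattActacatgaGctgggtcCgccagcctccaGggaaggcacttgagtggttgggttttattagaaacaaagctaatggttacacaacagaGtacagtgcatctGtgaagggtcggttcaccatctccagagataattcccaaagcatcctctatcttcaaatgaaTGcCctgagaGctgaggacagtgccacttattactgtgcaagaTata

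The knockout against wild type under saline was called higher for 8 members, against 6.04% of all genes, and lower for 2, against 5.26%. The 10 calls were 8.55% of the 117 members tested, below the sum of those shares. The unadjusted count was 33, against 23.5% of all genes, and DESeq2 called 22 higher, against 8.30%, and 2 lower, against 7.66%. Beside Ighv4-1, 4 segments kept their call whichever library was left out. Igkv6-32 had 0, 8 and 11 counts in wild-type saline and 174, 224 and 327 in knockout saline, a rise of 4.71 ± 0.83 on the log2 scale (edgeR adjusted p = 0.00162). Igkv4-50 had 3, 0 and 1 against 74, 76 and 198, a rise of 5.87 ± 0.94 (adjusted p = 7.44e-04).

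Igkv4-72 and Ighv10-3 completed that set. Igkv4-72 had 2.05, 10.1 and 3 counts against 55.7, 101 and 198, a rise of 3.84 ± 0.75 (edgeR adjusted p = 0.00333). Ighv10-3 had 0 counts in every wild-type saline library and 42.7, 55.6 and 134 in knockout saline, at least 56.3-fold higher (adjusted p = 0.0123). Its call was lost when the replicate number was added to the model as a block. Ighv10-3 is 96.4% identical to Ighv10-1 over the last 250 bases, and 77.8% of its nonzero counts were not whole, so its split from Ighv10-1 is uncertain. The same holds for Igkv4-72 and its relative Igkv4-68.

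Igkv14-130 was counted almost wholly in knockout saline. It had 132, 172 and 365 counts there, 4 counts in 1 wild-type saline library, none in wild-type glycine and 5, 3 and 0 in knockout glycine. Against wild-type saline it rose by 6.55 ± 1.53 on the log2 scale (edgeR adjusted p = 0.0141), a call lost without knockout saline 3 (0.0758). Its counts were all whole, and its closest relative Igkv14-111 differs by 49 edits (chromosome 6, plus strand). Capitals mark the 43 that fall on a base shown, and 6 are bases that Igkv14-130 lacks.
Igkv14-130: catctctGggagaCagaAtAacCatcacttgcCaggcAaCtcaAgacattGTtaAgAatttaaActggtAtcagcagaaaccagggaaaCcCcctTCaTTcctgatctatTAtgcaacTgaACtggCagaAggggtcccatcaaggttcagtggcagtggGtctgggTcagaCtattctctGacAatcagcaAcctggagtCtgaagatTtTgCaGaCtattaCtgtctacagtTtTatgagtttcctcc

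The remaining higher calls under saline were Igkv10-94 and Igkv9-129. Igkv10-94 had 5, 18.9 and 3.57 counts in wild type and 84.1, 81.8 and 167 in the knockout, a rise of 2.86 ± 0.86 (edgeR adjusted p = 0.0423, lost without every library but wild-type saline 2, up to 0.125 without wild-type saline 1). Igkv9-129 had 0 counts in wild type and 29, 40.6 and 99.4 in the knockout, at least 41-fold higher (adjusted p = 0.0354, lost whichever library was left out, up to 0.106 without knockout saline 3).

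A pair of kappa segments was lower in the knockout under saline. Igkv2-109 had 28, 17 and 12 counts in wild-type saline and 0 in knockout saline, at least 26.1-fold lower (edgeR adjusted p = 0.0351). Igkv9-123 had 3, 8 and 8 counts and then 0, at least 8.7-fold lower (adjusted p = 0.0304). Each call was lost without 5 of the 6 libraries. For Igkv2-109 wild-type saline 3 was the exception and adjusted p reached 0.108 without knockout saline 2, and for Igkv9-123 wild-type saline 1 was the exception and adjusted p reached 0.093 without knockout saline 3.

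The knockout against wild type under glycine was called higher for 6 members, against 1.50% of all genes, and lower for 1, against 1.06%. The unadjusted count was 47, against 13.8% of all genes, and DESeq2 called 30 higher, against 3.25%, and 1 lower, against 2.63%. Igkv6-32 was called again, with 18, 28 and 4 counts in wild-type glycine and 343, 467 and 533 in knockout glycine, a rise of 4.54 ± 0.79 on the log2 scale (edgeR adjusted p = 0.00613), and kept its call whichever library was left out. It was thus higher in the knockout under both treatments. Igkv4-50 and Igkv4-72 were also called under both, here with rises of 3.53 ± 0.79 (adjusted p = 0.0270) and 3.14 ± 0.69 (adjusted p = 0.0250). Igkv4-50 went from 14, 15 and 9 counts to 112, 208 and 195, and Igkv4-72 from 32.4, 46.8 and 15.2 to 272, 349 and 336.

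Heavy segments called under glycine were Ighv14-4, Ighv9-3 and Ighv6-3. Ighv14-4 had 0 counts in wild-type glycine and 122, 155 and 108 in knockout glycine, at least 111-fold higher (edgeR adjusted p = 0.0114, but 0.0515 without wild-type glycine 6). Ighv9-3 had 5, 26.6 and 7 counts in wild-type glycine against the 204, 268 and 254 given above, a rise of 4.09 ± 0.82 (adjusted p = 0.0144). Ighv6-3 had 0, 5 and 3 counts against 175, 201 and 147, a rise of 5.84 ± 1.40 (adjusted p = 0.0383). The groups did not overlap for any of these 3. Igkv4-50 and Igkv4-72 lost their calls without every library but wild-type glycine 4 (up to 0.128 and 0.113, both without wild-type glycine 6), Ighv6-3 whichever library was left out (up to 0.145 without wild-type glycine 6), and Ighv9-3 without wild-type glycine 6 or knockout glycine 4, 5 or 6 (up to 0.0845 without the last).

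Igkv9-123 was the 1 segment lower in the knockout under glycine, and the 1 member with at least 10 counts in every wild-type glycine library and fewer than 10 in each of the other 9. It had 127, 164 and 161 counts in wild-type glycine and 3, 0 and 0 in knockout glycine, a ratio of CPM of 173 (95% counting interval 58.9 to 844, edgeR adjusted p = 0.0194). The call was lost without wild-type glycine 5 or 6 or knockout glycine 5 or 6, with adjusted p up to 0.0874 without wild-type glycine 6.

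Relatives of Igkv9-123 had most of their counts in other groups. Igkv9-124 had 189, 177 and 126 counts in knockout glycine and at most 9.03 in any other library, without a call between glycine and saline in the knockout (5.38 ± 1.79, edgeR adjusted p = 0.209). Igkv9-129 had its 29, 40.6 and 99.4 counts in knockout saline and at most 8.13 elsewhere. These 3 of the 4 members of the family thus had most of their estimated counts in 3 different groups. Of nonzero counts, 62.5% for Igkv9-124 and 66.7% for Igkv9-129 were not whole, so the split from their relatives is uncertain. The counts of Igkv9-123 were all whole. The fourth member, Igkv9-120, is the closest relative of Igkv9-124, at 95.2% identity. It had 18, 29.4 and 121 counts in knockout saline, 43.7 in wild-type glycine 5 and at most 19.4 elsewhere. The first 3 are shown, as the last 250 bases of the transcripts on chromosome 6 (GENCODE vM21, GRCm38, 5′ to 3′; minus strand for the first 2, plus strand for Igkv9-129). Igkv9-123 and Igkv9-124 are 30 edits apart, and Igkv9-129 is 20 edits from Igkv9-124. Capitals mark those that fall on a base shown, 25 in each of the first 2 and 19 in Igkv9-129, and the others are bases that the segment shown lacks.
Igkv9-123: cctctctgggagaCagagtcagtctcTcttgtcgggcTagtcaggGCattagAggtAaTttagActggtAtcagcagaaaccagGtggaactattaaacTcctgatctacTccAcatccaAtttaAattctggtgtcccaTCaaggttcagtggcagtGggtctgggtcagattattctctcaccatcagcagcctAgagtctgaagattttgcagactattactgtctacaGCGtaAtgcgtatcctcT
Igkv9-124: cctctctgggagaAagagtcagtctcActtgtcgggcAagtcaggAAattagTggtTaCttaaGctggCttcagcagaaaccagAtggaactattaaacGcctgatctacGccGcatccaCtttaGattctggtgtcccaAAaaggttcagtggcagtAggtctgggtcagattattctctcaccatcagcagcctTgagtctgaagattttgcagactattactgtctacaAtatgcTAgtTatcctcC
Igkv9-129: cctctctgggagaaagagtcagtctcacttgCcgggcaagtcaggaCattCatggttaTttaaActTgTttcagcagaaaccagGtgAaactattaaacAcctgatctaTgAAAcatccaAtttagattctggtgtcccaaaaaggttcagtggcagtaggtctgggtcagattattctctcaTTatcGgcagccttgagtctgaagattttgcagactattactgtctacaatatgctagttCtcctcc

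The interaction of glycine and genotype was called for 1 member, Ighv4-1, lower, against 0.847% of all genes, and for 0 higher, against 0.273%. The unadjusted count was 26, against 13.1% of all genes, and DESeq2 called 7 higher, against 1.57%, and 4 lower, against 2.55%. Igkv12-41 came next, with 7.84 ± 1.79 on the log2 scale (edgeR adjusted p = 0.0501), followed by Igkv9-129 (adjusted p = 0.0846).

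Leading kappa segments differed between groups. Igkv4-91 led all 3 knockout saline libraries, with 445, 684 and 1120 counts, or 22.4%, 18.3% and 24.2% of kappa counts. It had 49, 3 and 158 counts in wild-type saline, 52, 19 and 10 in wild-type glycine and 350, 14.1 and 16.1 in knockout glycine, so libraries of 1 group differed widely. No comparison called it, and the smallest adjusted p was 0.110, for knockout against wild type under saline (3.06 ± 1.15, edgeR). Igkv8-30 led wild-type glycine 4 and 6, and Igkv6-23 led wild-type glycine 5 with 16.6%. In wild-type saline Igkv4-91, Igkv6-23 and Igkv8-19 led 1 library each. In knockout glycine the leaders were Igkv4-59, Igkv8-27 and again Igkv4-59, with 6.24%, 5.79% and 13.0%.

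Igkv4-91 is known in mice from B-1a cells that bind phosphatidylcholine, where it pairs with Ighv12-3, and Ighv11-2 with Igkv14-126 forms the other such pair. Ighv12-3 had 18 counts over 2 libraries and was not a member. Ighv11-2 had 0, 5 and 0 counts in saline-treated wild type, 6, 18 and 0 in glycine-treated wild type, 6, 28 and 40 in saline-treated knockout and 60, 118 and 121 in glycine-treated knockout. Igkv14-126 had 2, 10 and 0, then 15, 31 and 2, then 30, 49 and 36, and 191, 334 and 195. Both were highest in knockout glycine, and none of their comparisons passed the test.

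**Figure D3:**
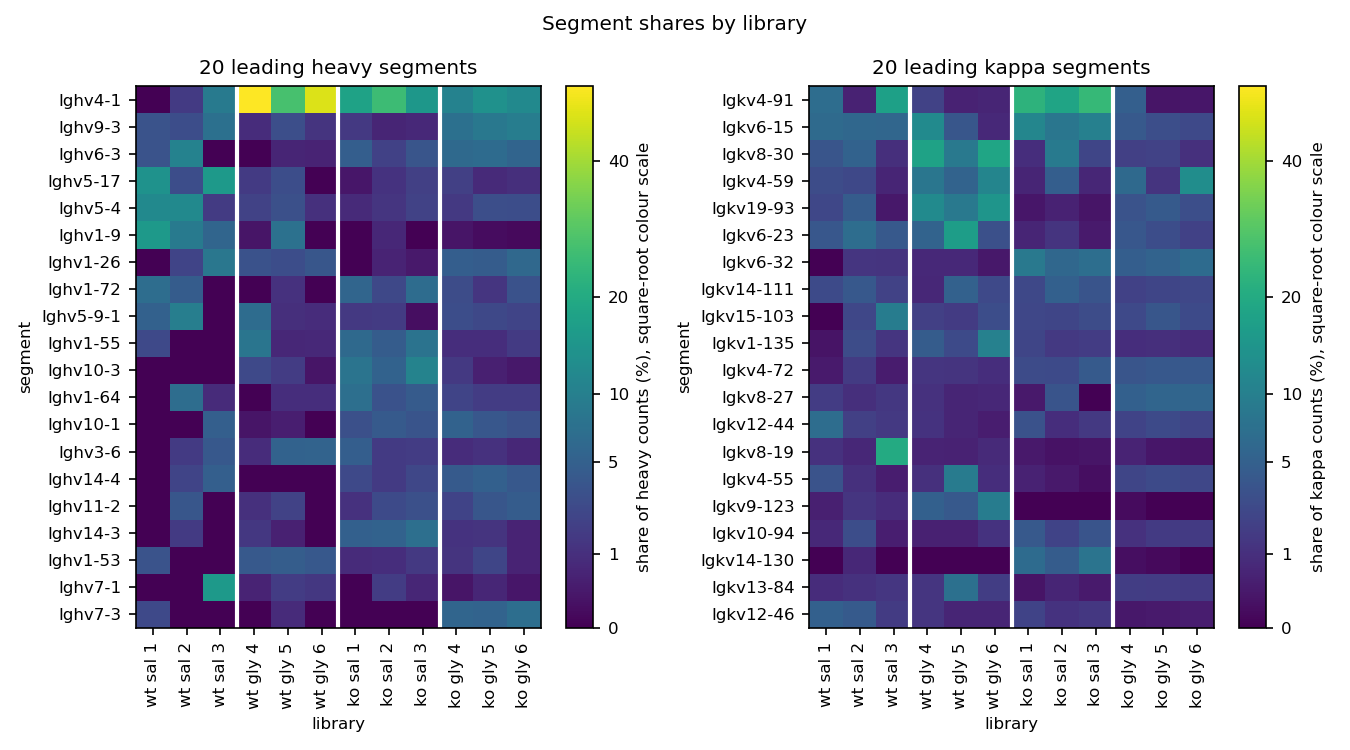
Percentage of heavy (left) or kappa (right) counts in each of 12 libraries for the 20 segments with the highest mean share, on a square-root colour scale, with white lines between groups (wt, wild type; ko, knockout; sal, saline; gly, glycine). Ighv4-1 filled wild-type glycine at 27.0% to 53.8%, Igkv4-91 led knockout saline at 18.3% to 24.2%, and Igkv14-130 and Igkv9-123 had their highest shares in knockout saline and wild-type glycine.

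Other segments of high mean share had no call in any comparison. Igkv6-15 had 12 to 471 counts and Igkv14-111 16 to 203 counts across the 12 libraries. Igkv15-103 had 0 to 322 and Igkv1-135 1 to 174, and the latter was highest in wild-type glycine 6, at 10.3% of kappa counts. Of the heavy segments, Ighv1-26 had 135, 140 and 162 counts in knockout glycine and at most 26.2 elsewhere, Ighv1-72 0 to 89.6 and Ighv5-9-1 0 to 83.2.

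Some leading segments recurred in every library of a group. Among the 5 leading heavy segments of each library, 4 were shared by all 3 knockout glycine libraries (Ighv4-1, Ighv6-3, Ighv7-3 and Ighv9-3) and 3 by all knockout saline libraries (Ighv1-55, Ighv10-3 and Ighv4-1), against 1 in wild-type glycine and 0 in wild-type saline. For kappa segments 2 were shared in knockout glycine (Igkv6-32 and Igkv8-27), 3 in knockout saline (Igkv4-91, Igkv6-15 and Igkv6-32), 2 in wild-type glycine (Igkv19-93 and Igkv8-30) and 1 in wild-type saline (Igkv6-15).

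Shares of 2 libraries were compared by their overlap, the sum over segments of the smaller of the 2 shares, which is 100% for identical usage. Heavy overlap was 24.2% to 49.3% within saline-treated wild type, 52.5% to 68.2% within glycine-treated wild type, 70.3% to 77.0% within saline-treated knockout and 81.5% to 85.3% within glycine-treated knockout, and 12.5% to 55.9% between groups. Kappa overlap was 44.9% to 62.5%, 56.5% to 72.0%, 72.0% to 85.6% and 82.4% to 83.6% within the groups and 22.6% to 57.9% between them. In each locus the most similar library belonged to the same group for 11 of 12 libraries. The low overlap within wild-type saline stood beside its low depth of 115 to 132 heavy counts, whose part in it was not tested.

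**Figure D4:**
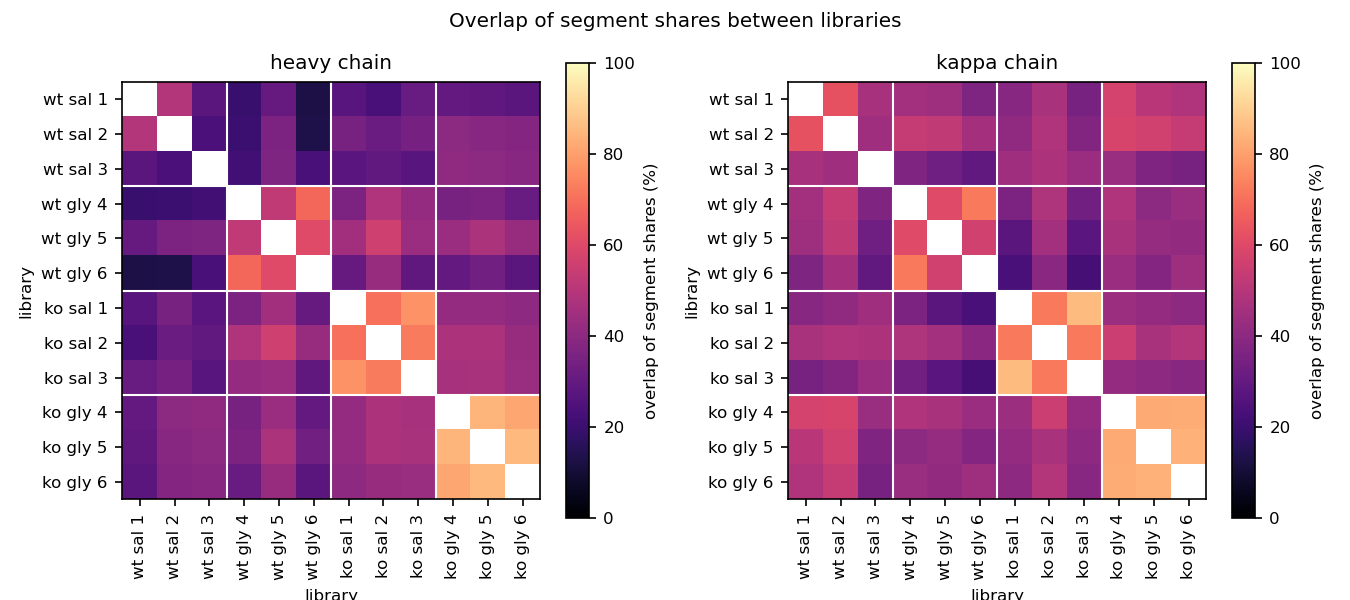
Overlap of segment shares (%) for each pair of libraries, heavy chain left and kappa chain right, with white lines between groups and the diagonal blank. Blocks on the diagonal were brighter than the rest in both knockout groups, at 70.3% to 85.3% for heavy segments, while pairs from different groups reached at most 55.9%.

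Some segments had nearly all of their counts in 1 group. At least 10 counts in every library of a group and fewer than 10 in each of the other 9 were seen for 0 members in saline-treated wild type, 1 in glycine-treated wild type, 6 in saline-treated knockout and 20 in glycine-treated knockout, the group with the most segment counts. Of the 14803 entries of the table with a summed count of at least 30, the same rule took 0.0270%, 0.0540%, 0.0743% and 0.230%. The 6 of knockout saline were Igkv14-130, Igkv9-129, Ighv1-58, Ighv1-78, Ighv1-62-2 and Igkv1-99. Ighv1-58 had 22, 48 and 43 counts there. Among the 20 of knockout glycine, Ighv5-12 had 151, 173 and 141 counts, and Igkv4-86 70.9, 80.7 and 73.9. Mean CPM was highest in knockout glycine for 93 members, in knockout saline for 23, in wild-type glycine for 15 and in wild-type saline for 4, against 22.6%, 26.5%, 21.2% and 29.7% of those entries. All 12 libraries held a count of 28 members.

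Family shares differed between groups as well. Ighv5 took 34.7%, 30.4% and 30.3% of heavy counts in saline-treated wild type, 14.2%, 12% and 2.84% in glycine-treated wild type, 3.92%, 5.75% and 6.32% in saline-treated knockout and 17.6%, 17.4% and 17.3% in glycine-treated knockout, so its share was lower with glycine in wild type and higher with glycine in the knockout, without overlap. Ighv1, the family with the most members (31), averaged 38.9% ± 14, 34.3% ± 9.21, 40.4% ± 2.41 and 26.8% ± 1.87 (mean ± SD, n = 3). Ighv9, here Ighv9-3 alone, averaged 4.63% ± 2.39, 1.72% ± 1.17, 0.929% ± 0.493 and 8.56% ± 1.19, in the same order of groups. Ighv10 averaged 11.7% ± 2.37 in knockout saline and 1.64% ± 2.84 in wild-type saline.

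Of the kappa families, Igkv4 with 19 members averaged 23.7% ± 4.74 in saline-treated wild type, 18.2% ± 2.21 in glycine-treated wild type, 33.2% ± 1.81 in saline-treated knockout and 29.8% ± 4.96 in glycine-treated knockout, and both knockout groups lay above wild-type glycine. In knockout saline the family took 31.8%, 32.5% and 35.2%, and Igkv4-91 alone took 22.4%, 18.3% and 24.2%. In wild-type glycine the family took 16.6%, 20.7% and 17.3%, and Igkv4-91 2.09%, 0.488% and 0.59%. The higher family share of knockout saline thus rested on 1 segment and was not shared across the family. Igkv14 averaged 12.1% ± 1.3 in knockout saline and 3.62% to 5.82% in the other groups. Igkv19, here Igkv19-93 alone, averaged 2.38% ± 2.16, 11.9% ± 2.97, 0.285% ± 0.170 and 3.65% ± 0.627.

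Position along the locus was read from the order of genes in GENCODE vM21, with the heavy locus on chromosome 12 and the kappa locus on chromosome 6. The side of the locus nearer the joining segments held 41 of the 76 kappa members and took 58.5% to 64.4% of kappa counts in saline-treated wild type, 48.3% to 61.7% in glycine-treated wild type, 34.8% to 47.6% in saline-treated knockout and 59.2% to 65.4% in glycine-treated knockout. Knockout saline was below all other libraries. Igkv4-91, number 105 of 160 from the joining segments, took 22.4%, 18.3% and 24.2% of kappa counts in knockout saline. The low share of the nearer side there thus rested in large part on 1 segment. For heavy segments, with 30 of 59 members on the nearer side, shares of 55.0% to 84.4% overlapped between most groups.

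Near-identical segments limited some of these values. Compared over the last 250 bases with all other entries of its locus, the closest relative of a member matched at 94.8% in the median and between 55.2% and 100%. Of nonzero counts, 63.9% were not whole for the 60 members with a relative at 95% or more, 47.6% for the 44 at 90% to under 95%, and 8.66% for the 31 under 90%. A count that is not whole shows that the authors' estimation divided reads between entries. The windows were taken from transcript ends, so identity is understated where the ends of 2 transcripts do not match. Ighv1-18, at 64.4%, still had 60% of its nonzero counts not whole. In 39 members all counts were whole, among them Ighv4-1, Igkv19-93, Igkv14-130, Igkv6-32, Igkv9-123, Igkv4-50 and Ighv7-3. Whole counts need not mean that a relative was told apart. Ighv11-2 was also whole throughout, although 99.2% identical to Ighv11-1, which had 0 counts in every library. Igkv4-59, Igkv4-68 and Igkv4-72 each had 91.7% to 100% of their nonzero counts not whole, and Ighv1-62-2 is identical to Ighv1-71 in this window. Among other called segments, the share not whole was 91.7% for Igkv10-94, 90.9% for Igkv1-117, 83.3% for Igkv8-30 and 80% for Igkv12-41. It was 77.8% for Ighv10-3, 66.7% for Igkv9-129, 62.5% for Ighv14-4, 33.3% for Ighv9-3 and 30% for Ighv6-3. The split of these segments from their relatives is likewise uncertain.

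**Figure D5:**
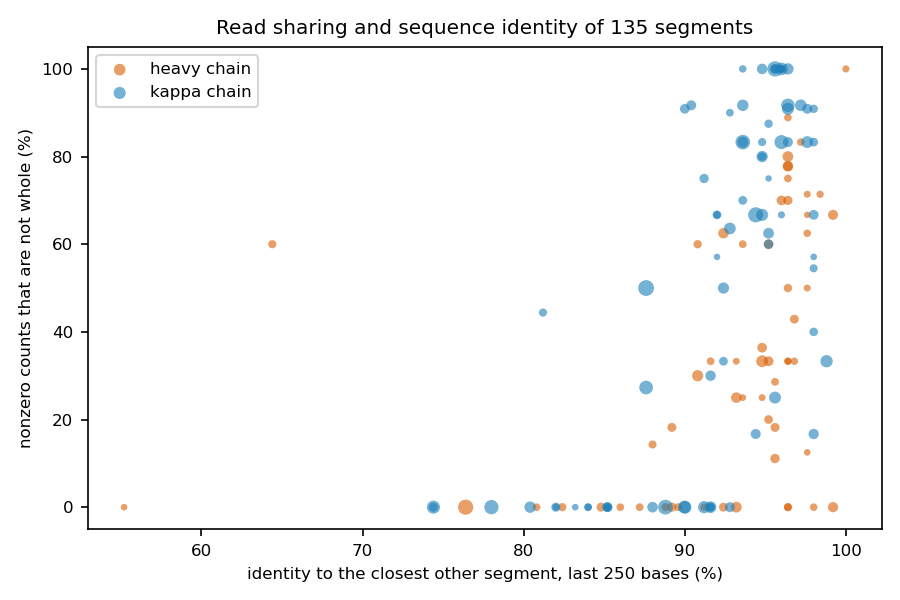
Percentage of nonzero counts that are not whole against identity (%) to the closest other segment over the last 250 bases, 1 dot per member and dot size growing with its summed count. Members under 90% identity mostly sat at 0. Pooled over the members at 95% or more, 63.9% of nonzero counts were not whole.

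When members at 95% identity or more were summed before the test, an alternative chosen after seeing the data, the 135 members became 108 units. Calls were then 4, 6, 12, 6 and 1 for glycine in wild type, glycine in the knockout, knockout under saline, knockout under glycine and the interaction, against 3, 5, 10, 7 and 1 for single segments. The share called over all genes in this alternative is not given.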

How the data were processed

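The authors deposited estimated counts (RSEM expected counts, per the submitters' processing notes, which also name HISAT2 2.1.0, StringTie 1.3.1 and Bowtie2 2.2.8) and FPKM values per gene and library; the genome build is not given in the sources used here, and no coordinates are printed. Estimated counts were deposited to 2 decimals, and 10.4% were not whole. Rounded, they were tested with edgeR 4.0.16 (R 4.3.3; TMM, filterByExpr, robust quasi-likelihood, 4 groups in 1 model), with Benjamini-Hochberg adjustment over 13928 genes and a threshold of 0.05. Fitted fold changes carry a prior count of 0.125. Rows without a symbol held at most 0.0124% of a library's counts.

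The members, gene lists and naming rule were chosen with earlier results of these data known. Named segments were the 10 leading ones of each locus by mean share, the leader of each library, up to 6 called each way per comparison, the smallest interaction p-values, those nearest the count minimum and the phosphatidylcholine-binding set. Igkv10-94, Igkv9-129, Igkv8-19 and the group-restricted segments outside that rule were added after their values were seen.

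Diversity, overlap and family shares were computed from unrounded counts in Python 3.11.15, with families read from symbols. Sequences and gene order came from GENCODE vM21 (GRCm38), in which all 135 members were listed as functional variable genes. Intervals on shares are 95% exact binomial ones and cover counting error only. None of the 66 pairs of libraries agreed within sampling noise (chi-square per degree of freedom 33.9 to 427). The test was tried on simulated data. Alternatives were DESeq2 1.42.0, limma 3.58.1 on log2(FPKM + 1) and log2(FPKM + 0.1), other scalings and filters, fewer groups and leaving out each library.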

Additional observations from a re-analysis of the deposited data

Results flagged for a closer look

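The 4 heavy chain measures given here moved in opposite directions with glycine in the 2 genotypes, with every glycine library on 1 side of every saline library in each genotype, and the difference was not tested for these measures. The inverse Simpson number averaged 12.9 in saline-treated wild type, 5.81 in glycine-treated wild type, 14.1 in saline-treated knockout and 21.0 in glycine-treated knockout, a change that was 14 higher in the knockout. The wild-type glycine mean was 3.56 without wild-type glycine 5. Related heavy measures did not separate in this way: in wild type the effective number (13.2 to 19.9 with saline, 7.04 to 20.4 with glycine), the share of the 5 leading segments (48.7% to 56.8%, 49.1% to 76.3%) and the number of segments at a common depth (16.9 to 26.6, 18.0 to 29.5) overlapped. The share of the leading heavy segment moved by 28.6 percentage points in wild type and −7.23 in the knockout, a difference of −35.8. The share of the family Ighv4 moved by 39.5 and −7.23 points, a difference of −46.7, and that of Ighv5 by −22.2 and 12.1 points, a difference of 34.3. These shares are parts of 1 whole, so they do not move independently.

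Single segments with opposite shifts, likewise not tested by this rule, were Ighv1-55 (difference of changes −2.54 CPM), Ighv10-3 (−3.37 CPM) and Igkv2-109 (3.44 CPM). Among interactions that were tested, Ighv4-1 passed at −4.85 on the log2 scale.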

How the results depend on the processing

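Of 359 log2 fold changes of called segments under an alternative, 0 changed direction and 99 no longer passed the threshold. Direction was not scored for group levels or diversity. DESeq2 called 11, 24, 24, 31 and 11 segments for glycine in wild type, glycine in the knockout, knockout under saline, knockout under glycine and the interaction. On log2(FPKM + 1) the counts were 15, 71, 37, 68 and 45, and on log2(FPKM + 0.1) 17, 53, 38, 52 and 18. With only the 2 compared groups they were 0, 22 and 21 for glycine in wild type, glycine in the knockout and knockout under glycine. Size factors in place of TMM, or no filter, gave 2 for the interaction. Leaving out 1 library at a time gave 1 to 5, 0 to 3, 5 to 9, 1 to 7 and 0 to 2 calls. With a replicate block the calls were 6 under saline, with Ighv10-3 among those lost, and 1 under glycine. For settings other than the main edgeR fit and DESeq2, the share called over all genes is not given. Those counts therefore do not show whether members were called more often than other genes. Same-numbered libraries of the genotypes correlated at −0.034 to 0.019 in their deviations from group means. The labels do not say whether the numbers pair libraries, and these values, from 3 libraries per group, cannot decide it.

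Group levels in the order wild-type saline, wild-type glycine, knockout saline and knockout glycine were 22.2, 139, 149 and 569 for heavy and 138, 582, 574 and 1618 for kappa segments in summed FPKM. The kappa means of wild-type glycine and knockout saline thus changed order, since in CPM they were 149 and 173. Without mitochondrial and haemoglobin genes in the denominator they were 17.1, 66.5, 81.4 and 237, and 100, 267, 298 and 668 CPM. On unscaled totals, a choice added after seeing the data, heavy segments reached 160 in knockout glycine and kappa 42.5 in wild-type saline and 450 in knockout glycine. With a minimum of 100 counts the heavy level in knockout glycine was 118 CPM, and the heavy effective number (exponential of Shannon entropy) was 12.4 in wild-type saline, 16.6 in knockout saline and 21.1 in knockout glycine; with a minimum of 10 it was 24.4 in knockout saline. Leaving out annotated pseudogenes changed nothing, since no member is one. The causes were not tested. Heavy shares in wild-type saline rest on 115 to 132 counts.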
